A study of Mus musculus with 2 samples.

Results

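The surface epithelium of the embryonic mouse genital tubercle, which grows into the penis or clitoris, was described from single-cell RNA counts at embryonic day 14.5 (Theiler stage 22). Genital tubercles of wild-type C57BL/6 embryos were pooled by sex, 3 embryos per pool taken from 2 litters, which gave 1 male and 1 female library. The embryos of a pool cannot be told apart, and with 1 library per sex no difference here has a replicate check and no test across samples was possible. Barcodes were kept from 2000 unique molecular identifiers upward (UMIs, each counting 1 captured RNA molecule), with 500 or more genes and no more than 10% of UMIs from mitochondrial genes, 17254 male and 18711 female ones. A kept barcode was called epithelial when at least 3 of 8 genes (Epcam, Cdh1, Cldn6, Cldn7, Krt5, Krt14, Krt18 and Perp) had a UMI. Surface epithelium was then the epithelial barcodes with no UMI of Shh or Foxa1 and at least 2 UMIs summed over Krt5, Krt14 and Krt15. The members were thus chosen by the measured UMIs of 11 genes. The rule gave 158 male and 96 female barcodes, 254 of 35965 in all. They were 0.916% of kept male barcodes (exact binomial 95% interval 0.779 to 1.07%) and 0.513% of kept female barcodes (0.416 to 0.626%). All intervals here cover counting error alone. The files hold no position of a cell, so outer skin, the preputial lamina and other keratin-bearing folds could not be told apart.

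The genital tubercle is covered by ectoderm whose basal cells sit on a basement membrane and carry the keratin pair of Krt5 and Krt14 under the transcription factor p63. Cells that leave the basal layer switch to Krt1 and Krt10 and later build the cornified barrier, while a thin periderm covers the surface in the embryo. An epithelial fold of the same ectoderm, the preputial lamina, separates the glans from the prepuce. The urethral plate, of endodermal origin, lies below and is the main source of the ligand Sonic hedgehog. In embryonic skin, ectodermal Wnt ligands signal to the epidermis itself and to the mesenchyme under it.

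The genes of the rule were high by construction, and their values only describe how the barcodes were chosen. Levels are UMIs summed over a set of barcodes per 1000000 UMIs of that set (CPM). Krt14 had 1930 (male) and 1578 CPM (female) in the surface epithelium, with 4.92 and 3.74 CPM in all other kept barcodes. Barcodes of 100 or fewer UMIs, which hold mostly free RNA, had 61.1 and 36.6 CPM of Krt14. Krt5 had 998 and 824 CPM, and Krt15, which marks basal cells of stratified epithelium, 672 and 342 CPM. A single male barcode carried 2 to 368 UMIs of the 3 keratins (median 27) and a single female barcode 2 to 160 (median 22). At the edge of the rule, the 28 male and 29 female barcodes with exactly 3 of the 8 genes had 63.8 and 70.0 CPM of Trp63, the gene of p63. Those with 4 or more genes had 188 and 194 CPM. The barcodes just outside, with 2 of the 8 genes and at least 2 keratin UMIs (35 male, 27 female), had 40.3 and 37.9 CPM. A list of 10 mesenchyme markers summed to 1744 and 2714 CPM in the barcodes with exactly 3 genes, to 523 and 902 CPM in those with 4 or more, and to 2247 and 2824 CPM in those just outside.

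Surface epithelial barcodes had a median of 7945 UMIs (male) and 7627 UMIs (female), against 5169.5 and 5242 for all kept barcodes, and summed to 1957770 and 1140411 UMIs. The 10 deepest barcodes held 30.1% and 35.0% of these. The sexes matched their labels: Xist, the RNA that coats the inactive X chromosome, had UMIs in 83 of 96 female and 0 of 158 male barcodes, a count that allows a share of up to 1.90%. Y-linked genes had UMIs in 102 of 158 male and 0 of 96 female barcodes, which allows up to 3.125%. Of the kept barcode sequences, 82 occurred in both libraries, among them 4 surface epithelial barcodes (1 male, 3 female), and none was surface epithelial in both. In the male library 2 surface epithelial barcodes, and in the female library 1, had at least 10% haemoglobin UMIs (highest 61.7% and 27.8%). Haemoglobin ratios are given with and without them.

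The promoters of Wnt6, Wnt3, Gjb2 and Dsp are shown because their genes were among the leading genes of the surface epithelium, because connexin, desmosome and Wnt genes stand for the groups described next, and because each holds a match to the AP-2 motif GCCNNNGGC, the element of a factor family that includes Tfap2b. They come from RefSeq on the GRCm38.p6 build, are 250 bases long, end at the base before the RefSeq start and are written 5′ to 3′ on the strand of the gene, with the motif in capitals. The windows lie at chr1:74771642-74771891 on the plus strand for Wnt6, at chr11:103773925-103774174 on the plus strand for Wnt3, at chr14:57104703-57104952 on the minus strand for Gjb2 and at chr13:38151044-38151293 on the plus strand for Dsp.
Wnt6: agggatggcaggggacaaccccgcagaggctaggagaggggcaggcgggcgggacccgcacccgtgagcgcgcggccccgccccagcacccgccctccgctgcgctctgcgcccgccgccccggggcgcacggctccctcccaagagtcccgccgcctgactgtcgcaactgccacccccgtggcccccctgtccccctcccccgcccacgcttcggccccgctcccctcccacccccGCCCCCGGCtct
Wnt3: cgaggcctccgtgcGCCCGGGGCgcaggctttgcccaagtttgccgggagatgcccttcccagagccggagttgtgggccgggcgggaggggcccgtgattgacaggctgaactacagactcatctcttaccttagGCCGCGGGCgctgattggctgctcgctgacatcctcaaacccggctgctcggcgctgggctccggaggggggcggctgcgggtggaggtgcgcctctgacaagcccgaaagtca
Gjb2: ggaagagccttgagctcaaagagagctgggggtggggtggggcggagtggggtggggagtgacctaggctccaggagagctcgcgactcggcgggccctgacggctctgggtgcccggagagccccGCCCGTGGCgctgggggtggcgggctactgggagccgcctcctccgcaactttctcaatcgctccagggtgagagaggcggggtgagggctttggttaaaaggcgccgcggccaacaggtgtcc
Dsp: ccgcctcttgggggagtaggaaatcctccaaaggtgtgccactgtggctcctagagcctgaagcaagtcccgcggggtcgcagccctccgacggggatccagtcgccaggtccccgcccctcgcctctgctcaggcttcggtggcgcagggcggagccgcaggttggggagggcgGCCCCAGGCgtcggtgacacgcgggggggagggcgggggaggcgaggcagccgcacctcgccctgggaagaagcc
Of the 24 leading genes named in the next paragraph, 16 had a RefSeq promoter. The AP-2 motif was found in 7 of these 16 (Bcam, Dsp, Gjb2, Spint2, Wnt3, Wnt4 and Wnt6), in 7 of their 18 windows, and in 13.7% of 32851 promoter windows of the same length. RefSeq and GENCODE starts differ for some genes. In 6 of the 16 (Bcam, Lgals7, Pdgfa, Pdlim1, Tfap2b and Wnt4) every RefSeq window reaches more than 30 bases into the GENCODE gene, so no such window is printed, and 5 of the other 10 genes hold the AP-2 motif. The KLF motif GGGNGGG was found in 13 of the 16 and in 44.8% of all windows, and the AP-1 motif TGANTCA in 1 (Lmo1) and in 6.75%. The p63 motif, CATG repeated after a spacer of 6 bases, was found in 0 of the 16 and in 0.49% of all windows. Both strands were searched, and the AP-2 matches of Wnt6 and Gjb2 overlap a KLF match. A match describes the letters of a window and says nothing of binding.

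Against all other kept barcodes, a set with 3337 and 3443 CPM of mesenchyme markers that includes the other epithelial barcodes, the surface epithelium was led by genes of cell junctions, Wnt ligands and ectodermal transcription factors. Ratios to other sets are on a log2 scale with 5 CPM added to both sides, which understates the difference of low genes, and a gene counts as called when it is at least 2-fold apart in the same direction in both libraries. Of 4286 genes with at least 100 UMIs over both sets of surface epithelial barcodes, 201 were called higher (4.69%) and 63 lower (1.47%). Genes had to reach that count within the surface epithelium, so genes low there could not be called lower. The 24 genes outside the rule with the highest ratio included Sfn, Gjb2, Krt17, Wnt6, Lmo1, Fxyd3, Trp63, Dsp, Wnt7b, Bcam, Gjb6, Pdgfa, Tfap2b, Trim29, Pdlim1, Wnt4, Kremen2, Lgals7, Wnt3, Gm16136, 4631405K08Rik, Spint2 and Esrp1.

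**Figure D1:**
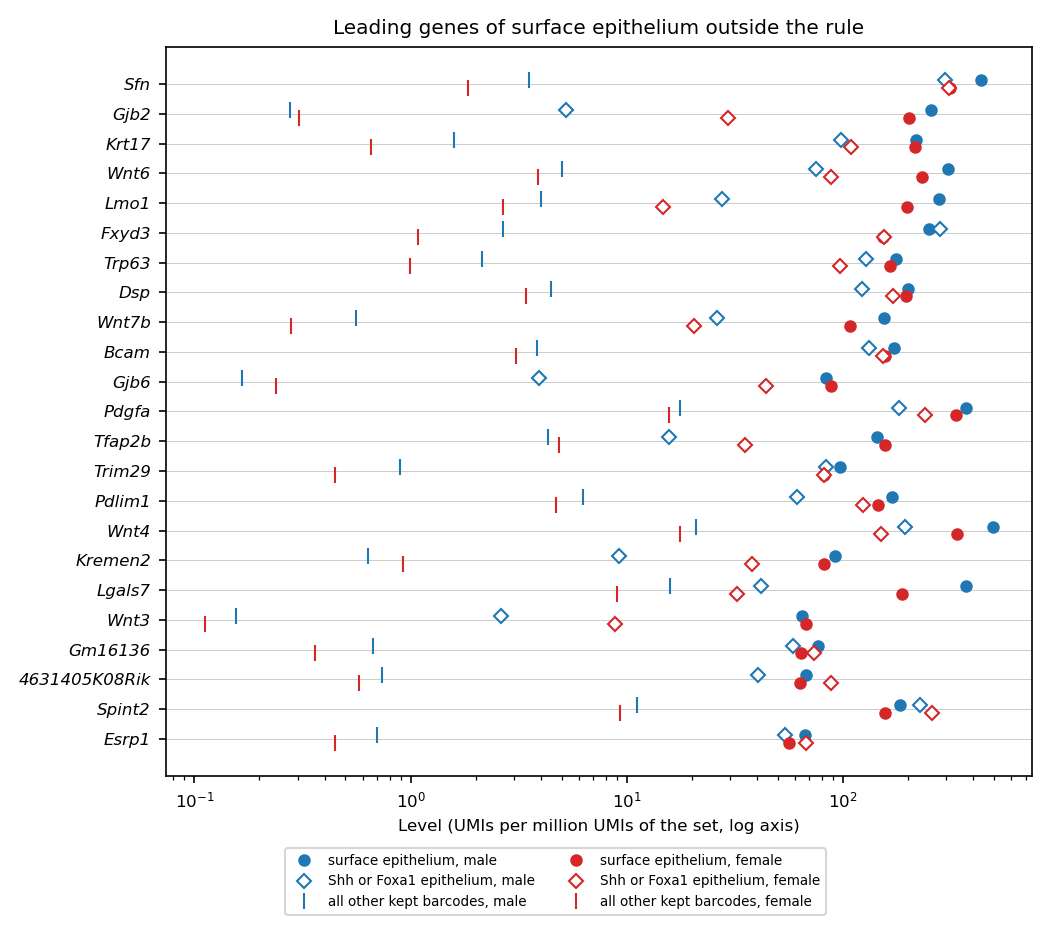
Level of leading genes (CPM, log axis) in surface epithelium (filled circles), in epithelial barcodes with a Shh or Foxa1 UMI (open diamonds) and in all other kept barcodes (ticks), male in blue and female in red. The circles of Sfn sit at 435 and 312 CPM and its ticks at 3.53 and 1.84 CPM, while the open diamonds of Gjb2, Lmo1, Wnt3 and Tfap2b lie well left of their circles.

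Sfn encodes 14-3-3 sigma, an adaptor protein of stratifying epithelia, and lies on the minus strand of chromosome 4 from 133600556 to 133602168 in the mm10 build. Male surface epithelium had 435 CPM of it (exact Poisson interval 406 to 465) and female surface epithelium 312 CPM (281 to 346), against 3.53 and 1.84 CPM in all other kept barcodes. After each barcode was thinned to 2000 UMIs, 54.4% of male and 33.3% of female surface epithelial barcodes had a Sfn UMI, and 0.404% and 0.269% of the others. Without thinning the first 2 shares were 81.0% and 69.8%.

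The connexin genes Gjb2 and Gjb6, neighbours on chromosome 14 whose products join into gap junctions between keratinocytes, had 254 and 202 CPM (Gjb2) and 83.8 and 87.7 CPM (Gjb6) in male and female surface epithelium. All other kept barcodes had at most 0.304 CPM of either. Kremen2, a receptor that damps Wnt signalling together with Dickkopf proteins, had 92.5 and 81.5 CPM against 0.635 and 0.919 CPM. Lmo1, a transcriptional cofactor, had 278 and 199 CPM against 4.02 and 2.69 CPM.

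Ectodermal transcription factors formed the next group. Of 28 listed, 13 had enough UMIs and 7 were called higher (among them Barx2, Gata3, Grhl2, Klf5, Tfap2b and Trp63), 0 lower. Trp63, at chr16:25683763-25892102 and needed for stratified epithelium, had 176 CPM (158 to 196) in male and 166 CPM (143 to 191) in female surface epithelium, against 2.14 and 0.999 CPM. Its thinned shares were 25.9% and 27.1%, against 0.345% and 0.210% of all other kept barcodes. Tfap2b had 144 and 156 CPM, against 4.31 and 4.87 CPM. Grhl2, a regulator of epithelial barrier formation, had 43.4 and 32.4 CPM, against 0.672 and 0.479 CPM. Not every ectodermal factor stood apart. Klf4 had log2 ratios of -1.41 and -0.89, and the limb and tubercle factors Msx1 and Pitx1 had 123 and 228 CPM and 33.2 and 53.5 CPM, below the 338 and 340 CPM and 121 and 105 CPM of all other kept barcodes.

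Most measured adhesion genes were higher across structures. Of 17 desmosome and adherens junction genes, 11 had enough UMIs and 9 were called higher (Cdh3, Dsg2, Dsp, Jup, Nectin1, Nectin4, Pkp1, Pkp3 and Ppl). The list median over those measured was log2 2.86 (male) and 2.47 (female), against -0.02 and 0.02 over all genes measured. Genes of the list that were low in the surface epithelium were not measured, so the median leaves them out. Dsp, which encodes desmoplakin and ties keratin filaments to the desmosome, had 201 CPM (181 to 222) and 196 CPM (172 to 224), against 4.46 and 3.44 CPM. The later desmosomal cadherins were barely present: Dsg1a had 18 UMIs and Dsg3 10 over all surface epithelial barcodes, and Dsc1 had 0.

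Of 25 hemidesmosome and basement membrane genes, 17 had enough UMIs and 10 were called higher (among them Bcam, Cd151, Col17a1, Dst, Fermt1, Fras1, Frem2, Hspg2 and Lama5). Bcam, a receptor for laminin, had 173 and 157 CPM against 3.85 and 3.06 CPM. Col17a1, the transmembrane collagen of hemidesmosomes, had 77.1 CPM (65.3 to 90.5) in male and 37.7 CPM (27.3 to 50.8) in female barcodes, against 0.875 and 0.440 CPM. Fras1 and Frem2, whose products hold the epidermis to the dermis in the embryo, had 86.8 and 85.1 CPM and 75.1 and 84.2 CPM, against 12.0 and 11.1 CPM and 5.88 and 4.49 CPM. Other genes did not follow. Itga6 and Itgb4, listed as surface epithelium markers outside the rule, were not called in either direction. Itgb1 was at 150 and 146 CPM against 183 and 186 CPM, and Nid1 at 24.5 and 43.0 CPM against 104 and 103 CPM.

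Among 25 genes of tight junctions and epithelial identity, 9 had enough UMIs and 7 were called higher (among them Arhgef5, Cldn4, Esrp1, Lsr, Rab25 and Spint2). Esrp1, a splicing regulator of epithelial cells, had 66.9 and 56.1 CPM against 0.70 and 0.448 CPM. Spint2, an inhibitor of membrane serine proteases, had 183 and 156 CPM against 11.2 and 9.34 CPM.

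Wnt ligands supplied 4 of the 24 leading genes. Of 24 Wnt ligand and response genes, 11 had enough UMIs and 6 were called higher, all of them ligands (Wnt3, Wnt4, Wnt6, Wnt7a, Wnt7b and Wnt10a). Wnt4 had 493 CPM (462 to 525) and 338 CPM (305 to 373), against 20.9 and 17.6 CPM in all other kept barcodes. Wnt6 had 308 CPM (284 to 334) and 231 CPM (204 to 261), against 5.03 and 3.90 CPM. Wnt7b had 155 and 108 CPM, and Wnt3 had 64.9 and 67.5 CPM, against at most 0.562 CPM elsewhere. Wnt7a had 33.7 and 31.6 CPM and Wnt10a 45.5 and 16.7 CPM. Wnt3a and Wnt9b, too low for a call, had 7.15 and 7.89 CPM and 5.62 and 6.14 CPM, with less than 0.02 CPM elsewhere. Wnt5a, a ligand of outgrowing mesenchyme, went the other way, at 132 and 173 CPM against 321 and 343 CPM. The Wnt response genes Axin2 and Lef1 had 21.5 and 50.9 CPM and 39.3 and 73.7 CPM, below the 58.8 and 71.7 CPM and 78.7 and 96.0 CPM elsewhere. Nkd1, another response gene, had 16.9 and 24.6 CPM against 84.3 and 85.0 CPM.

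Other signalling genes were called one by one rather than as whole lists. Pdgfa, a growth factor that epidermis sends to dermal cells, had 371 and 333 CPM against 17.7 and 15.7 CPM. The chemokine gene Cxcl14 had 2052 CPM (1989 to 2116) and 1809 CPM (1732 to 1889) against 331 and 305 CPM. With Erbb2 these were the 3 called higher of 8 measured among 28 other signals and receptors.

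Of 18 FGF genes 4 were measured, with the receptor gene Fgfr2 (141 and 107 CPM against 42.7 and 42.5 CPM) and Fgfbp1 (41.9 and 36.8 CPM against 0.111 and 0.120 CPM) called higher and Fgfr1 lower (38.3 and 64.9 CPM against 138 and 139 CPM). Fgf8 had 8.68 CPM in male surface epithelium and 0 UMIs in the female barcodes, which allows up to 2.63 CPM there. In the Notch list 3 of 5 measured genes were called higher, with Notch1 at 103 and 110 CPM against 11.7 and 9.61 CPM, its ligand Jag2 at 54.7 and 40.3 CPM against 1.68 and 1.10 CPM, and the feedback gene Nrarp at 39.3 and 47.4 CPM against 4.81 and 2.30 CPM.

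In the BMP and TGF-beta list 1 of 9 measured genes was called higher, Fst, which encodes the activin antagonist follistatin. The ligand gene Bmp4 had 10.7 and 36.8 CPM against 54.3 and 48.1 CPM. None of 3 measured Hedgehog response genes was called in either direction, and Ptch1, the Hedgehog receptor and target, had 119 and 109 CPM against 158 and 173 CPM. Of 13 steroid receptor and enzyme genes 2 were measured and Srd5a1, a steroid reductase, was called higher (52.6 and 51.7 CPM against 8.55 and 9.0 CPM). The estrogen receptor gene Esr1 had 3 UMIs over all surface epithelial barcodes and Esr2 had 0.

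Most measured suprabasal and barrier genes were called, while several genes of the late barrier had no UMI. Of 26 suprabasal and barrier genes, 8 had enough UMIs and 7 were called higher (Fabp5, Krt1, Krtdap, Lgals7, Lor, S100a14 and Sfn). Krt1, the keratin of the first suprabasal layer, had 75.1 CPM (63.4 to 88.3) and 55.2 CPM (42.5 to 70.7), against 1.11 and 0.951 CPM. Its partner Krt10 differed less, at 74.1 and 64.9 CPM against 48.6 and 45.7 CPM. Lgals7, a galectin of stratified epithelia, had 370 and 187 CPM against 15.9 and 9.05 CPM. Krtdap, a secreted protein of differentiating keratinocytes, had 81.7 and 36.8 CPM against 0.175 and 0.0639 CPM. Lor, a cornified envelope gene, had 41.9 and 36.0 CPM against 7.72 and 5.74 CPM, whereas Flg, Ivl, Sprr3, Tgm5, Abca12 and Aloxe3 had 0 UMIs in all 254 barcodes. Placode genes were mostly too low as well: Edar had 4 UMIs and Lhx2 2, and Sostdc1 and Cdh3 were called higher among 5 measured of 18.

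Of the cell cycle lists, 0 of 19 measured S phase and 0 of 24 measured G2 and mitosis genes were called, where 4.69% of all genes were called higher and 1.47% lower. The summed level of the S phase list was 1574 CPM (male) and 1948 CPM (female) in the surface epithelium, against 1873 and 2032 CPM, and that of the mitotic list 4855 and 5438 CPM against 5011 and 5434 CPM. Mki67 had 198 and 236 CPM against 177 and 206 CPM.

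The nearest set for comparison was the epithelial barcodes with a Shh or Foxa1 UMI, 41 male and 27 female, which hold the urethral epithelium by rule. Of 5331 genes with at least 100 UMIs over both kinds of epithelium, 71 were called higher in the surface epithelium (1.33%) and 28 lower (0.525%). Of 20 measured hemidesmosome and basement membrane genes 0 were called, and of 11 measured desmosome genes 1 (Dsc3, higher). At the shares of all genes, lists this small would hold few or no called genes, so these counts say little of either list. In the Shh or Foxa1 set Dsp had 122 and 170 CPM, Bcam 132 and 153 CPM, Esrp1 53.8 and 67.5 CPM and Trp63 129 and 96.9 CPM. Other cell types were unevenly present in that set, with mesenchyme markers at 1642 CPM (male) and 984 CPM (female) and endothelial markers at 184 and 2.94 CPM, and their part in these differences was not tested.

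Several Wnt ligands differed between both epithelia. Of 12 measured genes of the list, 5 were called higher in the surface epithelium (Wnt3, Wnt4, Wnt6, Wnt7a and Wnt7b). Wnt3 had 64.9 and 67.5 CPM in the surface epithelium and 2.62 CPM (0.318 to 9.48) and 8.81 CPM (1.82 to 25.8) in the Shh or Foxa1 set, log2 3.20 and 2.39. Wnt7b had ratios of 2.36 and 2.14, Wnt6 of 1.97 and 1.34, and Wnt4 of 1.33 and 1.15. Wnt7a had 33.7 and 31.6 CPM against 0 UMIs and 5.87 CPM.

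The 10 genes with the highest ratio by the fixed rule were Hbb-bs, Hba-a2, Lmo1, Hbb-bt, Sostdc1, Gabrp, Irx4, Gjb2, Bfsp2 and Hba-a1. Sostdc1, a secreted antagonist of BMP and Wnt signals, had 409 CPM (381 to 438) and 240 CPM (213 to 270) in the surface epithelium, against 24.9 and 29.4 CPM in the Shh or Foxa1 set and 30.4 and 38.2 CPM in all other kept barcodes. Lmo1 had 278 and 199 CPM against 27.5 and 14.7 CPM, and Gjb2 254 and 202 CPM against 5.25 and 29.4 CPM. Gjb6 differed between libraries in that set, at 3.94 CPM (male) and 44.0 CPM (female). The homeobox gene Irx4 had 40.4 and 25.4 CPM against 1.31 CPM and 0 UMIs, and Bfsp2, an intermediate filament gene best known from the lens, 44.4 and 24.6 CPM against 1.31 CPM and 0 UMIs. The haemoglobin ratios rest on few barcodes: the 3 barcodes with at least 10% haemoglobin held 5727 of 6427 male and 3318 of 3770 female haemoglobin UMIs. Without them Hbb-bs had a male ratio of -0.09, Hba-a2 a male ratio of -0.10 and Hba-a1 a female ratio of -0.78.

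The 10 lowest genes were Atp1b1, Sox2, Mgp, Krt8, Dapl1, Rassf9, Atf3, Map1b, Krt19 and Tagln2. Krt8 and Krt19, keratins of simple and urothelial layers, had 51.1 and 31.6 CPM and 40.9 and 20.2 CPM, against 460 and 452 CPM and 182 and 352 CPM. Krt7 of the same list was not called, at 65.9 and 57.9 CPM against 105 and 200 CPM. Sox2 had 3 UMIs in each library's surface epithelium (1.53 and 2.63 CPM) and 84.0 and 103 CPM in the other set. The urethral factor Foxa2, which the rule did not use, had 1.02 and 0.877 CPM against 65.6 and 55.8 CPM. Mgp, a matrix protein, had 31.7 and 37.7 CPM against 453 and 452 CPM, and Atp1b1, a sodium pump subunit, 4.09 and 0.877 CPM against 129 and 115 CPM. With at most 5% mitochondrial UMIs, Atp1b1 and Rassf9 changed sign in the male library.

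**Figure D2:**
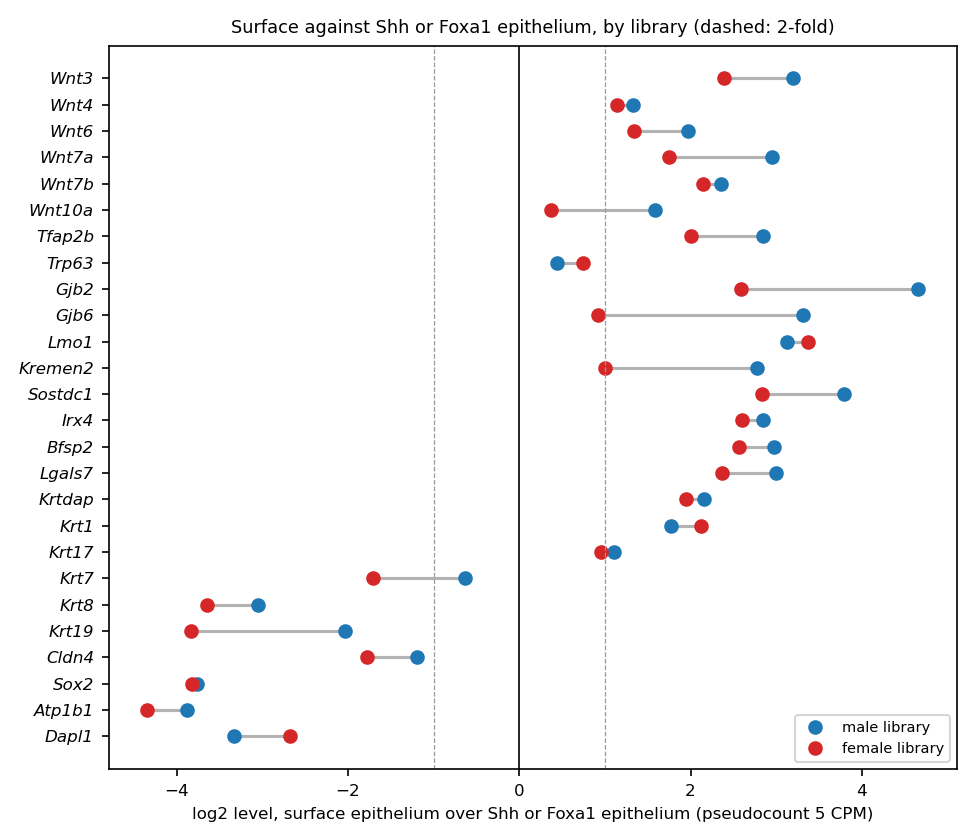
Log2 ratio of surface epithelium over Shh or Foxa1 epithelium (5 CPM added to both sides) in the male (blue) and female (red) library for 26 genes picked after their values were seen. Wnt3, Gjb2 and Lmo1 lie beyond the dashed 2-fold line on the right in both libraries, Krt17 lies near it, and Krt8, Krt19, Sox2 and Atp1b1 lie beyond it on the left.

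Individual barcodes were uneven for Krt17 and Krtdap, which the rule did not use. Krt17, a keratin of periderm and appendages, had 218 and 216 CPM, yet 116 of 158 male and 70 of 96 female barcodes had no UMI of it. The 10 richest barcodes held 77% of male and 89.8% of female Krt17 UMIs. For Sfn and Trp63, also outside the rule, these shares were 37.3% and 50.3%, and 42.6% and 49.2%. For Krt5 they were 33.5% and 40.2%, but the rule chose barcodes by that gene. Krtdap was as uneven, with 88.8% and 95.2% of its UMIs in 10 barcodes.

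**Figure D3:**
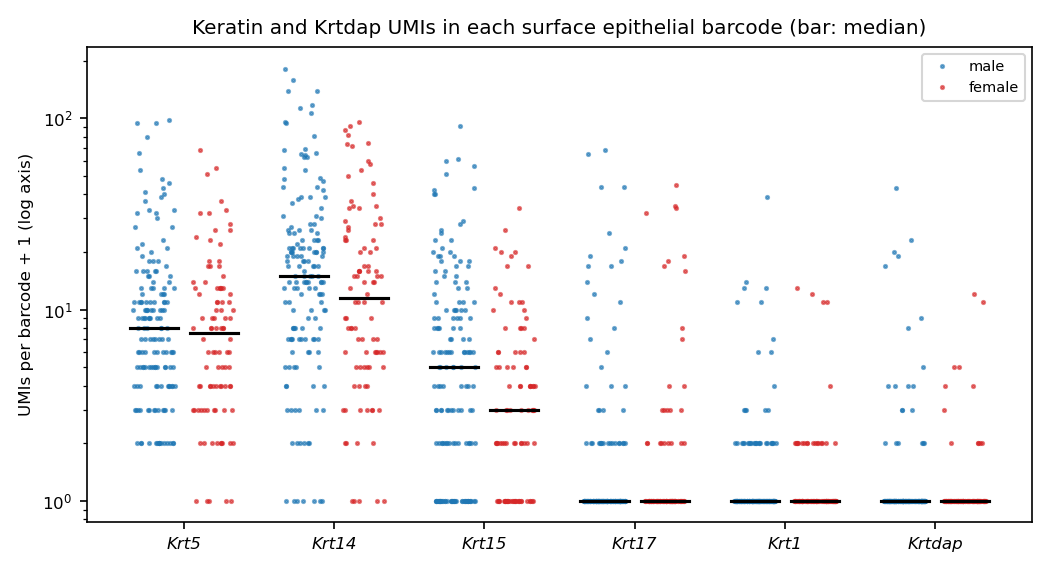
UMIs plus 1 (log axis) of Krt5, Krt14, Krt15, Krt17, Krt1 and Krtdap in each of 158 male (blue) and 96 female (red) surface epithelial barcodes, with the median as a black bar. Krt5 and Krt14, by which the barcodes were chosen, are spread over most of them with medians of 7 and 14 UMIs in the male library. Krt17, Krt1 and Krtdap, outside the rule, have medians of 0 and a few high barcodes.

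Barcodes were split by at least 2 UMIs of Krt17 and at least 2 UMIs of Krt1 or Krtdap, a split chosen after the values were seen. Neither level was reached in 120 male (75.9%) and 73 female (76.0%) barcodes, that of Krt17 alone in 17 (10.8%) and 13 (13.5%), that of Krt1 or Krtdap alone in 13 (8.23%) and 6 (6.25%), and both in 8 (5.06%) and 4 (4.17%). Of the barcodes that reached neither, 14 male and 9 female ones had 1 UMI of Krt17, and 17 and 11 had 1 UMI of Krt1. Deeper barcodes reach 2 UMIs more easily, and the median UMI count ran from 7516.5 (male) and 7492 (female) with neither to 20659.5 and 13912 with both. Mesenchyme markers moved with the split, at 760 and 1613 CPM with neither, 526 and 348 CPM with Krt17 alone, 602 and 1076 CPM with Krt1 or Krtdap alone, and 250 and 1217 CPM with both, and their part in the class differences was not tested. The shares of the 4 classes had overlapping intervals between the sexes, with Krt17 alone at 6.39 to 16.7% and 7.41 to 22%.

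Barcodes with Krt17 alone held 46 of 63 male and 59 of 72 female UMIs of Gabrp, a GABA receptor subunit gene, from 7 barcodes in each library. Its level was 185 and 257 CPM there and 13.9 and 3.77 CPM in barcodes with neither. Upk1b, a uroplakin of covering cell layers, had 72.3 and 39.1 CPM against 13.0 and 5.03 CPM, and the tight junction gene Cldn3 80.3 and 52.2 CPM against 7.82 and 1.26 CPM. Krt8 had 229 and 47.8 CPM against 33.0 and 13.8 CPM. The 8 male barcodes that reached both levels were not above those with neither, at 4.02 CPM of Gabrp, 8.05 of Upk1b, 0 of Cldn3 and 12.1 of Krt8. The 4 such female barcodes were above them, at 169, 50.7, 101 and 237 CPM. In barcodes with Krt1 or Krtdap alone, Notch1 had 194 and 502 CPM against 65.1 and 50.3 CPM with neither, and 120 and 174 CPM with Krt17 alone. Its ligand Jag1 had 71.2 and 251 CPM against 22.6 and 21.4 CPM with neither and 32.1 and 30.4 CPM with Krt17 alone. The desmosomal plakophilin gene Pkp1 had 90.6 and 197 CPM against 13.0 and 11.3 CPM with neither and 48.2 and 17.4 CPM with Krt17 alone. Krt5 and Krt14 helped to choose the barcodes, so high summed counts of them in any class follow from the rule and only describe it. Krt5 had 858 and 1883 CPM in barcodes with Krt1 or Krtdap alone and 1257 and 1118 CPM with Krt17 alone. Krt14 had 1385 and 2475 CPM and 2016 and 1566 CPM, but single barcodes with Krt17 alone were uneven in it. A male barcode with 64 Krt17 UMIs had 2 of Krt14, and a deeper one with 3 had 138. A female barcode with 44 Krt17 UMIs had 0 of Krt14, and a deeper one with 3 had 86. Female levels with Krt1 or Krtdap alone and with Krt17 alone come from 6 and 13 barcodes.

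Of the 7 measured periderm genes, all were called higher than in all other kept barcodes (among them Cldn4, Gabrp, Krt17, Krt19, Krt8 and Sfn). Several of them were at least as high in the Shh or Foxa1 set, and of the 7 measured there Gabrp was called higher and Cldn4, Krt19 and Krt8 lower. Krt4 and Krt6a, keratins of periderm and mucosa, had 6.13 and 0.877 CPM and 10.7 and 2.63 CPM.

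Male and female surface epithelium were compared within the barcodes of the rule, as the log2 ratio of male over female CPM with an exact conditional interval. Of 4286 genes, 18 were at least 2-fold higher in male (0.42%) and 36 in female barcodes (0.84%). That balance turned with at most 5% mitochondrial UMIs (6 male, 3 female). With no count minimum the counts were 1994 male and 1678 female, but a gene unseen in the other library then counts as 2-fold higher. More of the 31053 genes were unseen in the female than in the male barcodes (17508 and 16796). These counts therefore cannot tell whether the balance turned. The interval lay wholly above 0 for 302 genes (7.05%) and wholly below 0 for 630 (14.7%). In all, 1718 genes were above 0 and 2568 below, and the median ratio of all genes was -0.07. These differences are between 2 pools, and sex cannot be told apart from pool, dissection or library.

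The 8 genes highest in the male library included Hba-x, Hbb-y, Hist1h2ap, Fst, AY036118, Krtdap and S100a16. A single barcode held 92.6% of the male Hba-x and 88.3% of the male Hbb-y UMIs, and without the haemoglobin-rich barcodes their ratios were -0.57 and -0.03. Hist1h2ap and AY036118 had ratios of 1.46 and 1.15, and in all other kept barcodes 1.54 and 1.58. Fst had 97.0 CPM (83.7 to 112) in male and 41.2 CPM (30.3 to 54.8) in female surface epithelium, a ratio of 1.24 (0.77 to 1.73), and -0.22 in all other kept barcodes. Krtdap had a ratio of 1.15 (0.65 to 1.68) and S100a16, a calcium-binding protein gene, of 1.12 (0.71 to 1.54).

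Of 26 suprabasal and barrier genes 8 were measured. All 8 had a ratio above 0 and 6 had an interval above 0, with a median of 0.50, where 1718 of all 4286 genes were above 0 and 7.05% had an interval above 0. Lgals7 had a ratio of 0.99 (0.76 to 1.21), Fabp5 of 0.53 (0.42 to 0.63) and Sfn of 0.48 (0.30 to 0.66). Other surface genes with an interval above 0 were Sostdc1 at 0.77 (0.57 to 0.97), Col17a1 at 1.03 (0.54 to 1.56), Wnt10a at 1.45 (0.72 to 2.25) and Wnt4 at 0.55 (0.37 to 0.72). At the lower levels of all other kept barcodes given above, Krtdap, Lgals7, Sfn, Col17a1 and Wnt4 were also higher in the male library, while Sostdc1 was lower. How far these differences are particular to the surface epithelium was not tested. Trp63, Dsp and Krt17 had ratios of 0.09, 0.03 and 0.01 with intervals that include 0.

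The 8 genes highest in the female library were Shox2, Hbb-bt, Twist2, Hbb-bs, Runx1t1, Dkk1, Egr1 and Twist1. A single barcode held 96.3% of the female Hbb-bs and 95.7% of the female Hbb-bt UMIs. Without the haemoglobin-rich barcodes their ratios were -0.29 and -0.14, and without the barcode richest in the gene in each library they turned to 0.71 and 1.94. Shox2, Twist1 and Twist2 are transcription factor genes of mesenchyme. Twist1 had 122 CPM in male and 308 CPM in female surface epithelium (ratio -1.33, -1.58 to -1.09), against 825 and 972 CPM in all other kept barcodes. Egr1, an immediate early gene, had 35.8 and 92.9 CPM (ratio -1.38, -1.84 to -0.93). Of 19 measured S phase genes 17 were below 0 and 7 had an interval below 0, and of 24 measured G2 and mitosis genes 17 and 6, with 0 intervals above 0 in either list. Of all 4286 genes, 2568 were below 0 and 14.7% had an interval below 0. Among signalling genes, Bmp4 had a ratio of -1.78 (-2.61 to -0.99), Axin2 of -1.25 (-1.85 to -0.65) and Hes1, a Notch target, of -0.95 (-1.20 to -0.70). The 4 female barcodes that reached both levels of the keratin split held 75 Hes1 UMIs (1267 CPM), against 176 CPM in female barcodes with neither. The Hes1 ratio without these 4 was not taken.

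Mesenchyme markers moved with this comparison. The 10 markers summed to 641 CPM in male and 1311 CPM in female surface epithelium, 19.2% and 38.1% of their level in all other kept barcodes. Single barcodes ranged from 0 to 5981 CPM in male (median 183) and from 0 to 4674 CPM in female barcodes (median 402), and 48 male and 23 female barcodes had no such UMI. At least 50% of the median level of a non-epithelial barcode was reached by 30 of 158 male (19.0%, interval 13.2 to 26.0%) and 26 of 96 female barcodes (27.1%, 18.5 to 37.1%). Of the other lists, immune markers summed to 2.55 and 2.63 CPM, with Ptprc and Csf1r at 0, and endothelial markers to 16.9 and 19.3 CPM, with Cdh5, Kdr and Tek at 0. The part of mesenchyme RNA in the differences between the sexes was not tested beyond leaving such barcodes out.

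**Figure D4:**
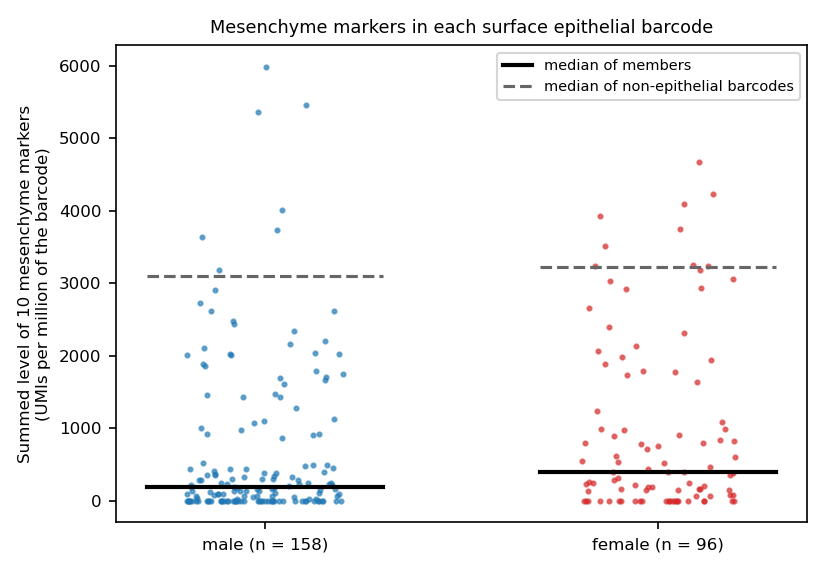
Summed level of 10 mesenchyme markers (UMIs per 1000000 of the barcode) in each surface epithelial barcode of the male (blue, n = 158) and female (red, n = 96) library. Black bars are the medians, 183 and 402 CPM, and dashed lines the medians of non-epithelial barcodes, 3105 and 3220 CPM.

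Without those mesenchyme-rich barcodes, 128 male and 70 female ones remained and 3311 genes had enough UMIs. Then 5 genes were at least 2-fold higher in male and 12 in female barcodes. Fst had a ratio of 0.89 (0.40 to 1.40), Krtdap of 0.89 (0.36 to 1.44), Wnt10a of 1.39 (0.59 to 2.29), Lgals7 of 0.65 (0.42 to 0.89), Sostdc1 of 0.64 (0.43 to 0.86) and Col17a1 of 0.77 (0.23 to 1.34). Of the 8 measured suprabasal genes, 7 were above 0 and 4 had an interval above 0, against 1410 of all 3311 genes above 0 and 6.49% with an interval above 0. Of 20 measured G2 and mitosis genes 18 were below 0 and 8 had an interval below 0, and of 16 S phase genes 10 and 4, against 1901 of all genes below 0 and 11.4% with an interval below 0. Sfn had 0.25 (0.06 to 0.45), Wnt6 0.20 (-0.02 to 0.43) and Krt1 0.07 (-0.39 to 0.53). On the female side Egr1 had -1.40, Hes1 -0.97 (-1.26 to -0.69), Axin2 -1.04 (-1.85 to -0.24) and Twist1 -0.75, while Dkk1 (-0.51), Runx1t1 (-0.30) and Shox2 (-1.68) had intervals that include 0. Twist2 turned to 1.36 with an interval that includes 0, from 11 male and 2 female UMIs. Twist1 and Twist2 are among the 10 markers by which barcodes were left out. Their ratios here are partly set by that exclusion and are no outcome apart from it.

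**Figure D5:**
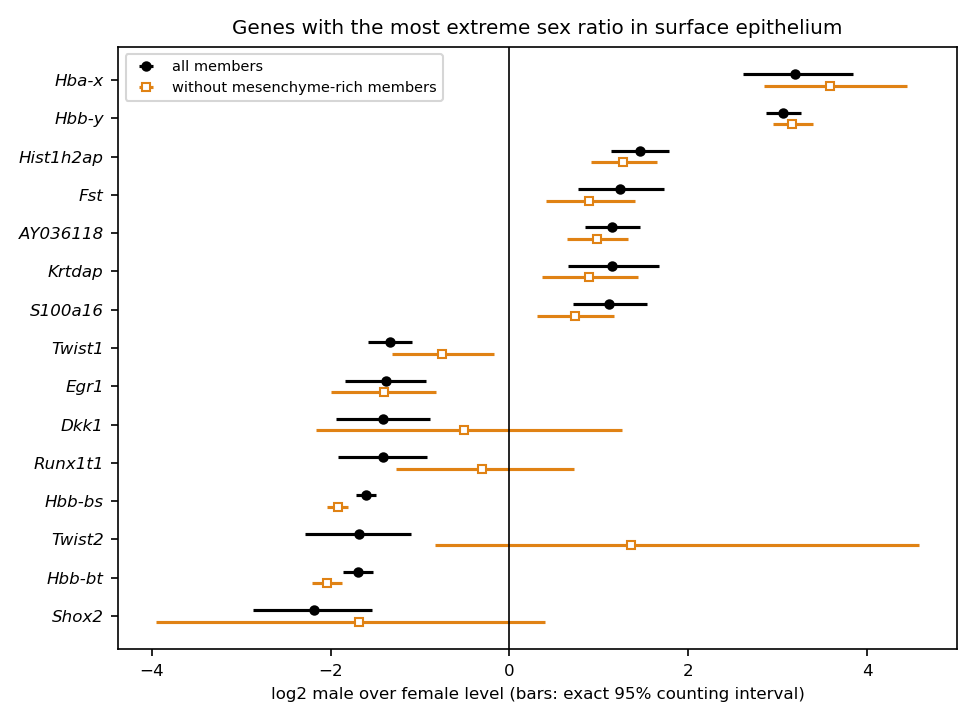
Log2 ratio of male over female level, with exact 95% counting intervals, for genes most extreme in either direction, over all surface epithelial barcodes (black circles) and without the mesenchyme-rich ones (open orange squares). Fst, Krtdap and S100a16 stay right of 0 in both, and the squares of Dkk1, Runx1t1 and Twist2 have bars that cross 0. Twist1 and Twist2 are among the markers by which the mesenchyme-rich barcodes were left out.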

How the data were processed

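Dissociated genital tubercle cells of 1 male and 1 female pool, held 2 hours for genotyping, digested with collagenase XI for 30 minutes at 37 °C and passed through a 40 µm strainer, per the labels' protocols, were run on a droplet 3′ platform. The authors deposited raw whole-number UMI counts for 31053 genes in each of 6794880 listed barcodes per library. They were made with Cell Ranger 3.1 on mm10, per the submitters' processing notes. For the annotation version and the treatment of overlapping genes, the sources used here give nothing. Both libraries sum to 130105692 (male) and 144515562 (female) UMIs.

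The members, the gene lists and the comparisons were chosen with earlier results of these data known. Cells were not called by the authors in these files, so the thresholds of the rule were applied. No doublet caller was run, and mesenchyme markers per barcode are reported instead. Counts were summed per set and library and scaled to CPM, with a pseudocount of 5 CPM for ratios between sets and none between sexes. Intervals are exact at 95% (Clopper-Pearson, Poisson, and conditional binomial for ratios). The limits given for counts of 0 are not such intervals but 3 over the number of barcodes or of UMIs. The exact upper limits are wider, at 2.31% for Xist in male and 3.77% for Y-linked genes in female barcodes. Genes named were the 24 highest against all other kept barcodes (by the lower ratio of both libraries, at least 100 UMIs in the members, rule genes left out), the 10 highest and 10 lowest against the Shh or Foxa1 set, the 8 most extreme in each direction between the sexes (at least 50 CPM in the higher library), and genes of the 31 lists. Other genes named, among them low ones and those of the split by keratins, were chosen after their values were seen. Of the gene IDs, 31011 (99.9%) matched GENCODE M21, which gave coordinates on mm10. Python 3.11.15, numpy 2.4.6, scipy 1.17.1, pandas 2.3.3 and matplotlib 3.10.9 were used, and the ratio and interval code was tested on simulated data. Alternatives covered the barcode thresholds, the count minimum, the pseudocount, equal weight per barcode, thinning and 4 exclusions of barcodes chosen after seeing the data. Some genes that the rule names are not reported here.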

Additional observations from a re-analysis of the deposited data

How the results depend on the processing

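No paired analysis was possible because each sex has 1 library. The share of surface epithelial barcodes in the male and female library was 1.33% and 0.731% with a minimum of 5000 UMIs, 3.84% and 2.79% with at most 5% mitochondrial UMIs, 0.753% and 0.358% with at least 4 epithelial genes, and 0.742% and 0.374% without mesenchyme-rich barcodes. Thinning lowered shares of barcodes with a UMI, which unthinned were 59.5% and 53.1% for Trp63 and 81.0% and 69.8% for Sfn.

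Against all other kept barcodes, 39 genes were higher and 14 lower with at most 5% mitochondrial UMIs, 117 and 41 without the top 10% of barcodes by UMIs, 96 and 28 with a count minimum of 200, and 405 and 356 with none. The lower count was 130 with a minimum of 50 and 95 with equal weight per barcode. Against the Shh or Foxa1 set, 46 were higher and 1 lower with at most 5% mitochondrial UMIs, 30 and 16 with a minimum of 200, and 135 and 133 with none. There, 37 were higher without the top 10% by UMIs and 29 with a pseudocount of 20 CPM, and 49 were lower with a minimum of 50. Genes at least 2-fold higher in male and in female barcodes numbered 6 and 3 with at most 5% mitochondrial UMIs, 10 and 17 with at least 4 epithelial genes, 9 and 16 without the top 10% by UMIs, 43 and 90, 9 and 12, and 1994 and 1678 with minimums of 50, 200 and none, and 5 and 12 without mesenchyme-rich barcodes. Fewer barcodes or UMIs leave fewer genes to test. With no minimum, a gene unseen in the other library counts as 2-fold higher between the sexes. For other changes the cause was not tested.

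Of single genes, 540 of 768 ratios to all other kept barcodes stayed within their counting interval and 0 reversed. So did 431 of 600 to the Shh or Foxa1 set, where 5 reversed, and 192 of 240 between sexes, where 9 reversed. These ratios are of the leading genes, the highest and lowest against the Shh or Foxa1 set, and the most extreme between the sexes. They were picked for large ratios in these same counts, so a reversal was unlikely from the start and its absence is no check of the comparison. Male ratios of Atp1b1 (0.65) and Rassf9 (1.10) reversed with at most 5% mitochondrial UMIs, and Hba-x (-0.29) and Hbb-y (-0.24) between sexes with at least 4 epithelial genes. The exclusions of barcodes by mesenchyme, haemoglobin, library overlap or richest barcode were chosen after seeing the data. Without mesenchyme-rich barcodes Twist2, itself among the markers used for that exclusion, reversed (1.36). Without barcodes of at least 10% haemoglobin UMIs, Hba-a1 (female, -0.78), Hba-a2 (male, -0.10) and Hbb-bs (male, -0.086) reversed against the Shh or Foxa1 set. Hba-x (-0.57) and Hbb-y (-0.028) then reversed between sexes. Without the barcode richest in the gene in each library, Hba-x (-0.44), Hbb-y (-0.073), Hbb-bs (0.71) and Hbb-bt (1.94) reversed between sexes. Without barcodes shared between libraries no result reversed. Genes under 100 summed UMIs, counted over the surface epithelium or over both epithelia as each comparison sets it, were not called.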
